A study of Mus musculus with 18 samples.

Results

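Sterol synthesis and its control by the SREBP transcription factors were described through 25 genes on 55 probe sets, out of 18193 genes and 45037 non-control probe sets on the arrays. The genes were chosen by symbol from a list of 27 symbols that names the enzymes of cholesterol synthesis, the SREBP factors with their regulators, and a sterol carrier. Sc4mol is an older symbol of Msmo1, and Acat2 was not analysed here. Of the 55 probe sets, 46 were bright enough to test and covered all 25 genes. The other 9 were too dim, and each of them belonged to a gene with a brighter probe set. A gene was counted once, at its brightest probe set, and 13 genes had more than 1 tested.

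The mice carried either a knockout of Ppt1 or the wild-type gene, and RNA was profiled at 3, 5 and 8 months of age in 6 groups of 3 arrays each. The product of Ppt1, palmitoyl-protein thioesterase 1, cleaves palmitate off proteins in the lysosome, and people without it develop an infantile form of neuronal ceroid lipofuscinosis. Every group held males and females, in unequal numbers. Replicate 1 was male and replicate 2 female in each group. Replicate 3 was male in the 8-month knockout and female in the other groups. The knockout allele, the strain and whether each array was a separate mouse are not stated in the labels, so a p-value measures the spread between these samples, which may in part be technical. Values below are listed in the order of replicates 1, 2 and 3 of a group. This order names the samples and does not pair them across groups.

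The targeted gene matched the labels. The brightest Ppt1 probe set read 12.9 ± 7.66 (SD, n = 9) in the knockout, at most 23.4, and 595 ± 29.3 (SD, n = 9) in the wild type, at least 543. Of its 4 tested probe sets 3 were lower in the mean over ages, and the other averaged 65.4 ± 14.4 in knockout arrays against 59.0 ± 12.8 in wild-type arrays (SD, n = 9; change of 0.11, adjusted p = 0.611). The labels give the tissue as brain and cochlea. Markers of excitatory neurons, astrocytes, oligodendrocytes and microglia were bright, whereas 9 of 12 cochlear markers were too dim to test. Replicate 3 of the 8-month knockout stood apart from the other knockout arrays of that age: on the first principal component of all arrays, which held 24.2% of the variance, it lay at 9.86, against 50.7 and 45.6 for replicates 1 and 2. On the same component the 5-month knockout arrays lay at 17.7, 12.3 and 11.1. The spiked hybridisation controls of 8-month knockout replicate 3 were also 0.43 above the median array on the log2 scale. The other 17 arrays lay between -0.20 and 0.20. The arrays within the 8-month knockout had mean correlations of 0.961 to 0.969 with each other, against at least 0.979 in every other group. The counts that rest on this group are therefore given with and without its arrays.

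Cholesterol is built from acetyl-CoA through mevalonate, isoprenoid diphosphates, squalene and lanosterol, and the brain makes nearly all of its own because plasma lipoproteins do not cross the blood-brain barrier. The genes of the enzymes are switched on together by SREBP2, and the fatty acid genes mainly by SREBP1. Both factors are membrane proteins that SCAP escorts to the Golgi for cleavage when membrane sterol is low, and that INSIG proteins hold back in the endoplasmic reticulum when it is high. In the adult brain the pathway runs in astrocytes, in myelinating oligodendrocytes and, to a lesser extent, in neurons.

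At 8 months, 11 of the 25 genes were lower in the knockout and 1 was higher. A gene was called where limma's moderated test gave a Benjamini-Hochberg adjusted p of at most 0.05 over all tested probe sets. The test used 1 spread per probe set, shared by all 18 arrays. Among all 12496 genes tested, 5.95% were called lower and 6.97% higher at that age. The lower genes were Hmgcs1, Mvk, Idi1, Fdps, Fdft1, Sqle, Msmo1, Nsdhl, Sc5d and Dhcr7, all enzymes, and Stard4, a sterol carrier. The higher gene was Srebf1, which encodes SREBP1. The median change of the 25 genes was -0.36 on the scale of log2(signal + 16), where that of all genes was -0.02. Of the 19 enzyme genes, 18 had a change below 0, against 6648 of all 12496 genes. The median of the enzyme genes was -0.42. Counted by probe set, 20 of 46 were lower and 1 higher, against 5.91% and 5.74% of all probe sets.

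No member was called at 3 or at 5 months. At 3 months limma called 0 of 25 in either direction, where it called 0.912% of all genes higher and 0.336% lower. At an unadjusted p below 0.05, 2 members were higher and 0 lower, against 6.27% and 5.31% of all genes. Among the 19 enzyme genes 16 had a change above 0, with a median of 0.09. Of all 12496 genes, 6298 had a change above 0 at that age. At 5 months limma again called 0 in either direction, against 2.31% of all genes higher and 0.656% lower, with 3 members higher and 0 lower at an unadjusted p below 0.05 (8.94% and 6.21% of all genes). The median over the 25 genes was 0.07 at 3 months and 0.00 at 5 months.

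**Figure D1:**
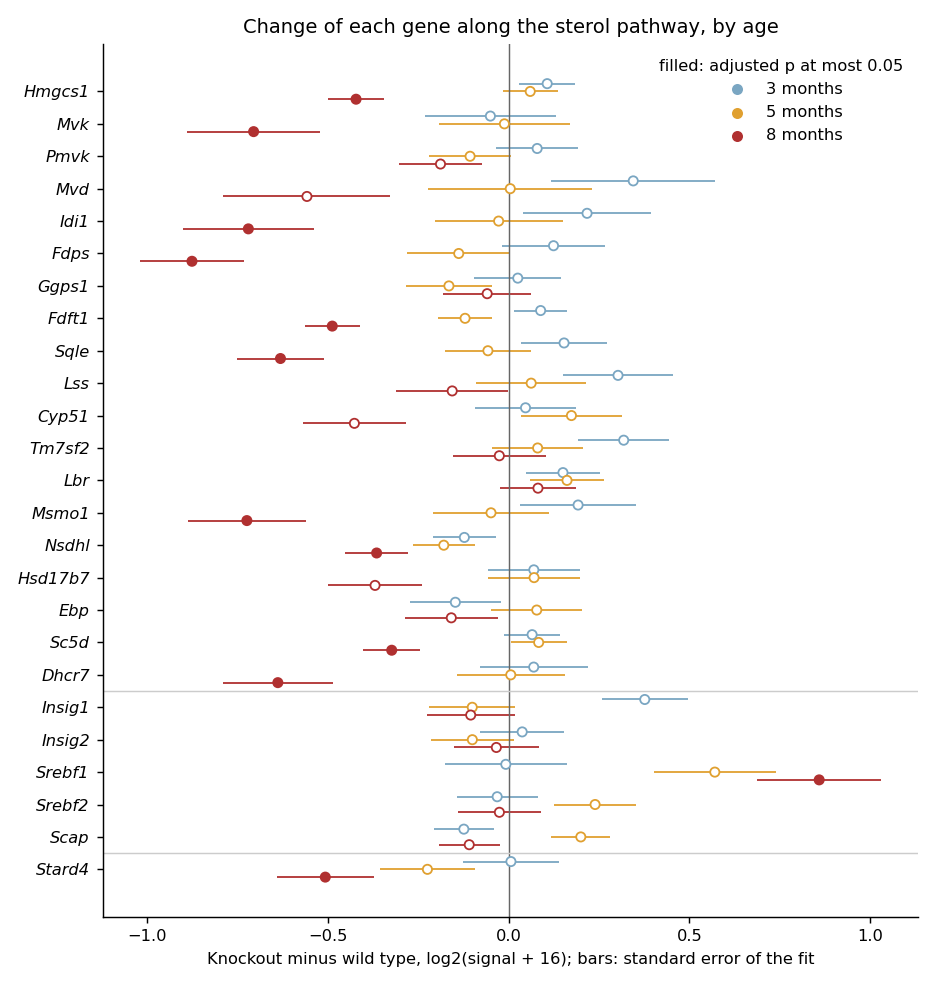
Knockout minus wild type for each gene in pathway order, as the log2(signal + 16) difference at 3 months (blue), 5 months (orange) and 8 months (red), with bars for the standard error of the fit and filled points for an adjusted p of at most 0.05. Filled points occur only at 8 months, 11 to the left of 0 and Srebf1 to the right.

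Hmgcs1 encodes cytosolic HMG-CoA synthase, the enzyme before the rate-limiting reductase. At 8 months its brightest probe set read 2774, 2725 and 2762 in the wild type and 2086, 1792 and 2436 in the knockout. All knockout arrays lay below all wild-type arrays. The change was -0.42 ± 0.08 (SE; limma adjusted p = 0.00123), which is 1.34-fold lower. The other tested probe sets of Hmgcs1 were lower as well, so 4 of 4 were called, from -0.55 to -0.42. At the younger ages the signals overlapped, with 2904, 2458 and 2686 in the wild type against 2791, 2870.2 and 2993 in the knockout at 3 months. At 5 months they were 2470.3, 2468 and 2592 against 2660.0, 2576 and 2614.

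Mvk encodes mevalonate kinase. Its signals at 8 months were 121, 123 and 113 in the wild type and 75.1, 59.7 and 67.4 in the knockout, with no overlap. Replicate 3 lay between the other knockout arrays here, and the change was -0.70 ± 0.18 (adjusted p = 0.0158), or 1.63-fold lower. The other Mvk probe set changed by -0.67 ± 0.30 and was not called (adjusted p = 0.158). At 3 months Mvk read 77.0, 90.9 and 106 in the wild type and 98.8, 99.8 and 66.1 in the knockout, and at 5 months 68.9, 112 and 92.3 against 111, 77.3 and 80.9. Both younger ages thus overlapped. From 3 to 8 months Mvk changed by 0.34 ± 0.18 in the wild type (adjusted p = 0.793). In the knockout it changed by -0.32 ± 0.18 (adjusted p = 0.348).

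Pmvk and Mvd, the phosphomevalonate kinase and the decarboxylase that follow, were not called. Pmvk changed by -0.19 ± 0.12 at 8 months (adjusted p = 0.325). The brightest Mvd probe set read 54.1 and 57.6 on knockout replicates 1 and 2 and 92.8 on replicate 3, and its change was -0.56 ± 0.23 (adjusted p = 0.125).

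Idi1, the isomerase that makes the reactive isoprenoid unit, was split within the 8-month knockout. It read 402, 359.6 and 459 in the wild type and 190.3, 190.4 and 416 in the knockout. Replicates 1 and 2 lay far below the wild type, and replicate 3 lay inside its range. The change over all arrays was -0.72 ± 0.18 (adjusted p = 0.0124), and both tested probe sets were called lower. This error rests on the spread of all groups. The SD of Idi1 was 130 in the 8-month knockout and 31.6 to 49.7 in the other groups. At 3 months the 3 knockout arrays read 535, 477 and 477 and were all above the wild type at 388, 422 and 466, without a call (0.22 ± 0.18, adjusted p = 0.777). At 5 months the signals were 453, 390.3 and 426 in the wild type and 453, 389.5 and 402 in the knockout.

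Fdps encodes farnesyl diphosphate synthase, at the point where the sterol and non-sterol isoprenoid branches part, and with all arrays it had the largest fall of the 25 genes at 8 months. Without knockout replicate 1 Mvk fell more (-0.76 against -0.71), and without replicate 2 Dhcr7 did (-0.80 against -0.76). The wild type read 675, 612 and 608, and the knockout 277, 289.9 and 519. No array overlapped, and knockout replicate 3 lay nearest to the wild type. The change was -0.88 ± 0.14 (adjusted p = 0.000436), or 1.83-fold lower. At 3 months the order was the opposite, with 604, 551 and 547 in the knockout just above 544, 482 and 532 in the wild type, and no call (0.12 ± 0.14, adjusted p = 0.857). At 5 months the wild type read 523, 536 and 444 and the knockout 434, 452 and 473. Ggps1, the geranylgeranyl diphosphate synthase of the non-sterol branch, changed at its brightest probe set by -0.06 ± 0.12 at 8 months (adjusted p = 0.808). All 4 of its tested probe sets had changes below 0 at that age, from -0.33 to -0.04, and none was called. In the mean over ages they ran from -0.21 to -0.07, and 1 of them was called (-0.21 ± 0.06, adjusted p = 0.0228).

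Fdft1 and Sqle, which make squalene and oxidise it in the first steps committed to sterols, fell on every 8-month knockout array. Fdft1 read 901, 863 and 911 in the wild type and 653, 602 and 685 in the knockout. Its 3 knockout arrays lay close together, and the change of -0.49 ± 0.08 had the smallest adjusted p among the members at their brightest probe sets (0.000225). Both tested Fdft1 probe sets were called. The younger signals were 778, 774 and 782 in the wild type against 841, 841 and 804 at 3 months, where the knockout was above without a call, and 903, 706 and 805 against 778, 739.7 and 692 at 5 months.

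Sqle, squalene epoxidase, read 563, 538 and 525 in the 8-month wild type and 366, 315 and 383 in the knockout. The groups did not overlap, and the change was -0.63 ± 0.12 (adjusted p = 0.00177), or 1.55-fold lower. At 3 months Sqle stood at 433, 466 and 376 in the wild type and 516, 437 and 469 in the knockout, and at 5 months at 556, 384 and 452 against 383, 426 and 522. Those ranges overlapped. Lss, the cyclase that closes the ring to lanosterol, changed by -0.16 ± 0.15 at 8 months and was not called (adjusted p = 0.574).

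The later steps turn lanosterol into cholesterol, and 4 of their 9 genes were lower at 8 months. Msmo1, the methyl sterol oxidase, read 1028, 1086 and 1043 in the wild type and 496, 523 and 990.1 in the knockout. Replicates 1 and 2 were less than the wild type by a wide margin, and replicate 3 lay just under it. The change was -0.72 ± 0.16 (adjusted p = 0.00619). At 3 months all knockout arrays, at 1096, 1125 and 1098, were above the wild type at 983, 851 and 1077, without a call (0.19 ± 0.16, adjusted p = 0.783). At 5 months Msmo1 read 996, 951 and 892 in the wild type and 804, 1019 and 931 in the knockout.

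Nsdhl, the dehydrogenase that removes methyl groups from the sterol together with Msmo1 and Hsd17b7, was the only enzyme gene whose knockout arrays lay below all wild-type arrays at each age. The wild type read 374, 340.3 and 369 at 3 months, 349, 338 and 328 at 5 months, and 339.8, 379 and 371 at 8 months. The knockout read 337, 315 and 339, then 312, 271 and 309, then 281, 268 and 294. The change was called at 8 months (-0.36 ± 0.09, adjusted p = 0.00951) and in the mean over ages (-0.22 ± 0.05, adjusted p = 0.00496), but not at 3 months (-0.12 ± 0.09, adjusted p = 0.717) or 5 months (-0.18 ± 0.09, adjusted p = 0.365).

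Sc5d, a desaturase near the end of the pathway, read 442, 388 and 385 in the 8-month wild type and 323, 315 and 344 in the knockout. The groups were apart by a modest margin, with a change of -0.32 ± 0.08 (adjusted p = 0.0106). Of its 3 tested probe sets 2 were called lower. The probe set without a call read 129.8, 157 and 314 in the knockout against 244, 259 and 273 in the wild type, so replicate 3 was above the wild type there. At 3 months the brightest Sc5d probe set read 420.5, 369 and 411 in the wild type and 442, 408 and 407 in the knockout, and at 5 months 351, 345 and 344 against 380.1, 369.7 and 355.

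Dhcr7, the reductase of the last step of the Kandutsch-Russell branch, read 212, 181 and 216 in the 8-month wild type and 93.2, 149.8 and 133 in the knockout. Here replicate 1 was the lowest, and replicate 3 lay below replicate 2. The change was -0.64 ± 0.15 (adjusted p = 0.00896), or 1.56-fold lower. At 3 months the signals were 221, 162 and 166 in the wild type and 179.7, 193 and 201 in the knockout, and at 5 months 172, 168 and 197 against 165, 167 and 209.8.

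The other 5 genes of the later steps were not called against the wild type at 8 months. Cyp51, the lanosterol demethylase, read 323, 274 and 298 in the wild type and 189.7, 181 and 327 in the knockout. Replicate 3 exceeded every wild-type array, and the change of -0.43 ± 0.14 missed the threshold (adjusted p = 0.0568). At 3 months Cyp51 read 320.5, 345 and 308 in the wild type and 354, 336 and 316 in the knockout, and at 5 months 335, 304 and 276 against 324, 342 and 370.2. Hsd17b7, the reductase that acts with Msmo1 and Nsdhl, changed by -0.37 ± 0.13 (adjusted p = 0.0702). Tm7sf2 and Lbr, which both reduce the same sterol double bond, changed by -0.03 ± 0.13 and 0.08 ± 0.10 (adjusted p = 0.926 and 0.676). Ebp, the isomerase, changed by -0.16 ± 0.13 (adjusted p = 0.478).

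**Figure D2:**
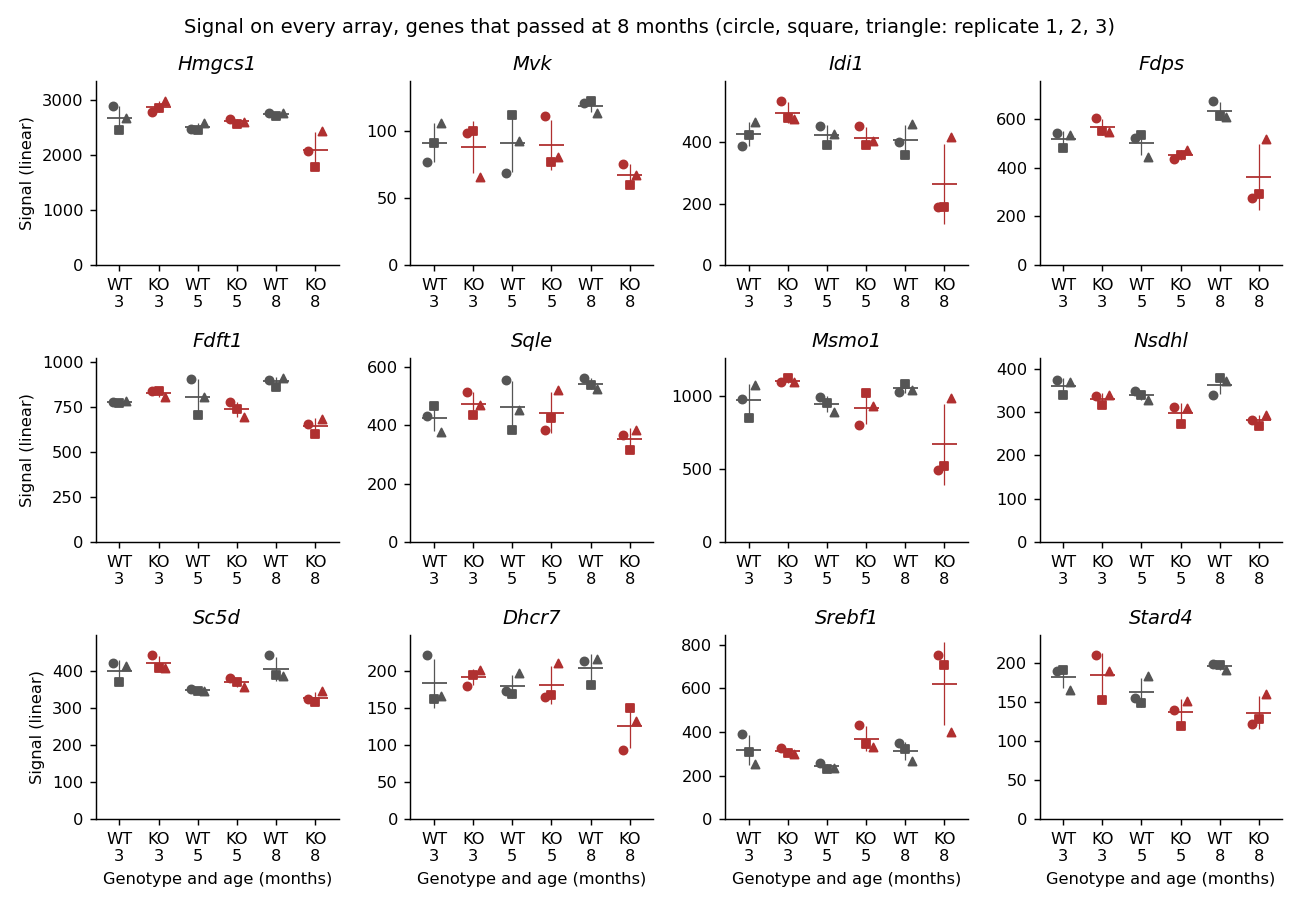
Linear signal of the 12 genes called at 8 months, for wild type (WT, grey) and knockout (KO, red) at 3, 5 and 8 months; circles, squares and triangles are replicates 1, 2 and 3, and lines are the group mean and SD. The triangle of the 8-month knockout lies nearest to the wild type in every panel except Mvk and Dhcr7.

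Of the 5 genes of SREBP control, 1 was higher and 0 lower at 8 months. Srebf1 rose at 8 months from 349, 323 and 268 in the wild type to 753, 709 and 402 in the knockout, with all knockout arrays above. Replicate 3 again lay nearest to the wild type. The change was 0.86 ± 0.17 (adjusted p = 0.00241), or 1.81-fold higher. At 5 months the knockout arrays, at 434, 345 and 329, were also above the wild type at 258, 233 and 236, but the change was not called (0.57 ± 0.17, adjusted p = 0.0902). At 3 months Srebf1 read 390.0, 311 and 253 in the wild type and 329, 305 and 301 in the knockout. The single Srebf1 probe set is named by gene only, so the SREBP1a and SREBP1c transcripts were not separated.

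Srebf2, the gene of the factor that drives cholesterol synthesis, gave different answers on its 2 probe sets. The brighter one read 331, 398 and 392 in the 8-month wild type and 323, 368 and 392 in the knockout, a change of -0.03 ± 0.11 (adjusted p = 0.915). The dimmer one read 238, 237 and 202 against 162, 136 and 179, and was called lower (-0.47 ± 0.13, adjusted p = 0.0197). No change of Srebf2 transcript as a whole can therefore be stated. Scap, the escort protein, changed by -0.11 ± 0.08 at 8 months (adjusted p = 0.449) and by 0.20 ± 0.08 at 5 months (adjusted p = 0.264).

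Insig1 is itself an SREBP target and encodes a protein that retains SCAP. At 3 months it read 413, 451 and 383 in the knockout and 355, 292 and 304 in the wild type. All knockout arrays were above, but the change was not called (0.38 ± 0.12, adjusted p = 0.19). At 8 months the order was turned, with 306, 325 and 324 in the knockout and 352, 329.7 and 334 in the wild type, at -0.10 ± 0.12 (adjusted p = 0.641). Insig2, which is not driven by SREBP in the same way, changed by -0.03 ± 0.12 at 8 months (adjusted p = 0.891), and none of its 3 probe sets was called.

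Stard4, a soluble protein that moves sterol between membranes, read 198, 198 and 191 in the 8-month wild type and 122, 128 and 160.3 in the knockout. The groups did not overlap, and the change was -0.51 ± 0.13 (adjusted p = 0.017). All 3 of its probe sets were called lower, from -0.86 to -0.51. At 3 months Stard4 read 189.6, 191 and 166 in the wild type and 211, 153 and 189 in the knockout, and at 5 months 155, 149.6 and 184 against 140.5, 119 and 152.

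**Figure D3:**
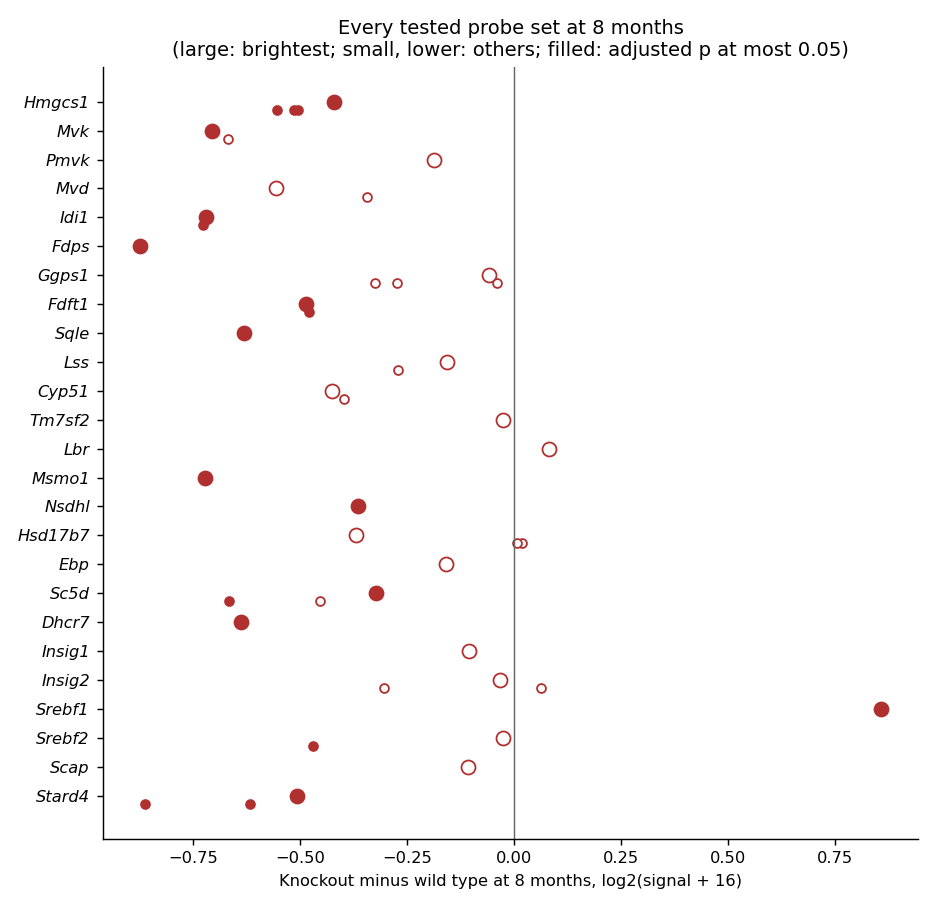
Knockout minus wild type at 8 months in log2(signal + 16) for each of the 46 tested probe sets, with the brightest of a gene large, its others small and drawn lower, and filled points called at an adjusted p of at most 0.05. All 4 probe sets of Hmgcs1 and all 3 of Stard4 are called lower, while the 2 of Srebf2 differ.

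Sequence upstream of the genes was read from a RefSeq promoter table of assembly GRCm38.p6, which held 21 of the 25 genes, with 250 bases before and 50 after each start. The motifs searched, on both strands, were TCACNCCAC, a core of the sterol regulatory element, CCAAT, the box bound by NF-Y, and GGGCGG, the box bound by Sp1. TCACNCCAC was found in 1 of 21 members, Hmgcs1, and in 1.24% of all 32851 promoters. With at most 1 mismatch it was found in 9 of 21 members, Hmgcs1, Cyp51, Msmo1, Nsdhl, Hsd17b7, Dhcr7, Insig1, Insig2 and Srebf2, and in 24.2% of all promoters. CCAAT was in 20 of 21 members and 37.4% of all promoters, and GGGCGG in 19 of 21 and 35.7%. Among the 10097 tested genes with a promoter, the shares were 1.38%, 29.2%, 42.6% and 68.7%.

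The stretches below show where the element lies, and so how close the match is. They cover the 4 searched genes that were called at 8 months and found to hold it. They were chosen after the values were seen, as was the search with 1 mismatch. The first Hmgcs1 line is the exact match, on chr13:119690184-119690252 (plus strand), and the second has 1 mismatch, on chr13:119690101-119690169 (plus strand). Msmo1 holds 2 matches with 1 mismatch each, on chr8:64733717-64733785 and chr8:64733632-64733700 (minus strand). Nsdhl is shown from chrX:72918286-72918354 (plus strand) and Dhcr7 from chr7:143823239-143823307 (plus strand), also with 1 mismatch each. Capitals mark the match to TCACNCCAC, which begins 137, 220, 177, 92, 205 and 130 bases before the start of the gene, in the order of the lines.
Hmgcs1, exact: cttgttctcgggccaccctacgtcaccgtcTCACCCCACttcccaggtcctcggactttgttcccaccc
Hmgcs1, 1 mismatch: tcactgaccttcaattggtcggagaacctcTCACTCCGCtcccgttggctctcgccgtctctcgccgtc
Msmo1, first match: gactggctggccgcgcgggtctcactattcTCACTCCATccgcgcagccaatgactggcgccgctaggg
Msmo1, second match: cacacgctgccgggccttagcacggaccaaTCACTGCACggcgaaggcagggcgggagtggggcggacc
Nsdhl: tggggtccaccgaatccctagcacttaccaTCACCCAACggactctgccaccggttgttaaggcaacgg
Dhcr7: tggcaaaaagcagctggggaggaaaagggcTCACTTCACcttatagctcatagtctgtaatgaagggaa
A match is a run of letters and not a measured binding site. Hmgcs1, with the exact match, changed by -0.42 at 8 months. With 1 mismatch, Msmo1 changed by -0.72, Dhcr7 by -0.64, Cyp51 by -0.43, Hsd17b7 by -0.37 and Nsdhl by -0.36. Insig1, also with 1 mismatch, changed by -0.10, and Insig2 and Srebf2 by -0.03 each. A link between match and change was not tested.

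Over the enzyme genes, replicate 3 of the 8-month knockout lay nearer to the wild type than replicates 1 and 2. Measured from the mean of the 8-month wild type, the median of the 19 enzyme genes was -0.44 on knockout replicate 1, -0.41 on replicate 2 and -0.16 on replicate 3. Enzyme genes more than 0.5 below the wild-type mean numbered 8, 9 and 2 on these arrays. The share of all genes past the same limit was not counted, so this pattern may not be particular to the enzymes. On the 8-month wild-type arrays the same median lay between -0.04 and 0.04. On the 3-month knockout arrays, set against their own wild type, it lay between 0.09 and 0.14.

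The 8-month count depended on which of these arrays were included. Here and below, the share of all genes called was not counted in fits with arrays left out. Whether calls over all genes moved in the same way was therefore not tested. Without replicate 3, 14 genes were lower, with Cyp51, Hsd17b7 and Mvd added, and the changes grew to -1.02 for Msmo1, -1.04 for Idi1, -1.12 for Fdps and 1.15 for Srebf1. Without replicate 1, 8 genes were lower, and without replicate 2, 6 were. With replicates 1 and 2 both left out, the single array gave 1 lower gene, Fdft1 (-0.43 ± 0.11, adjusted p = 0.0371), and 0 higher. That lone array was assumed to vary like the other groups. In the same fit Msmo1 changed by -0.06, Idi1 by -0.00, Fdps by -0.33 and Srebf1 by 0.18, while Sqle changed by -0.54, Mvk by -0.68 and Dhcr7 by -0.57. Among the wild-type arrays, leaving out 8-month replicate 1 gave 7 lower genes. A fit of the 8-month groups alone without a sex term kept 6 of the 12 calls. The calls of Msmo1, Idi1, Sc5d, Nsdhl, Dhcr7 and Stard4 were lost in it.

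**Figure D4:**
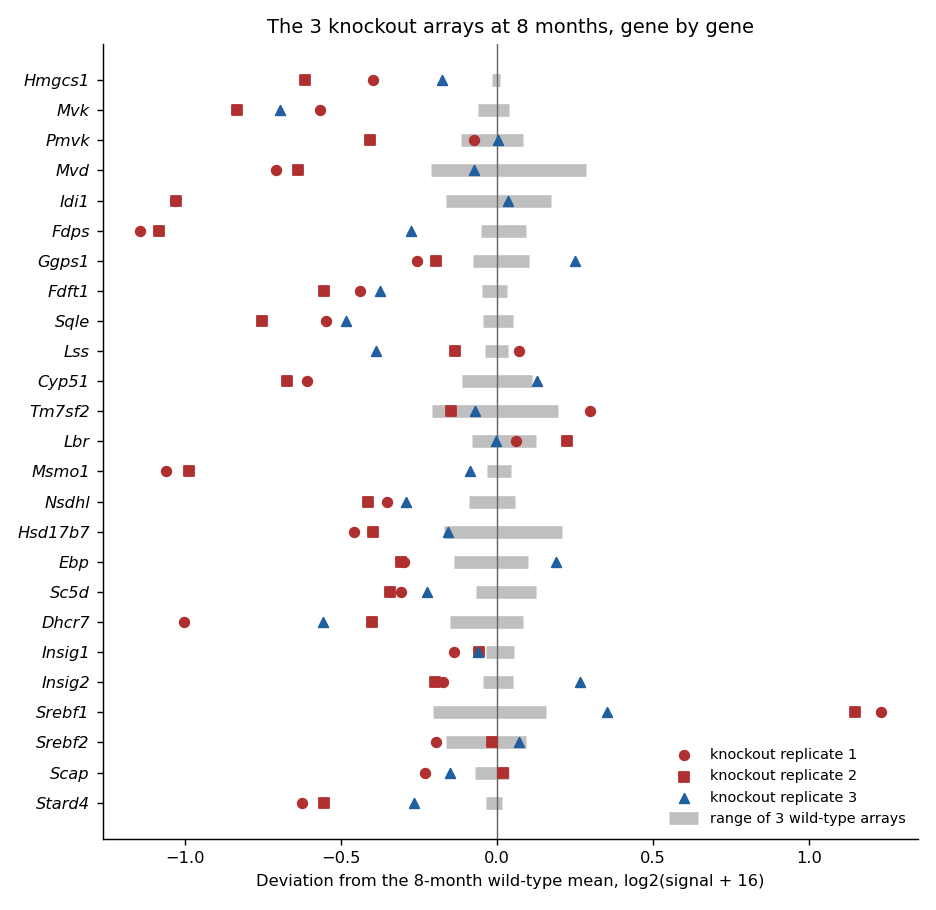
Deviation of each 8-month knockout array from the mean of the 8-month wild type, in log2(signal + 16), gene by gene; grey bars span the 3 wild-type arrays. Replicates 1 and 2 (red) lie together left of the bar for Idi1, Fdps, Cyp51 and Msmo1, where replicate 3 (blue) lies near it, and all 3 lie left of it for Fdft1, Sqle and Nsdhl.

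Counted by arrays alone, 11 genes at 8 months had all knockout arrays below all wild-type arrays, and 1 had them above, against 14.4% and 12.8% of all genes. The 11 were the called genes without Idi1 and with Insig1. At 3 months 6 genes were wholly above and 1 below, against 10.6% and 10.2% of all genes, and at 5 months 5 were above and 1 below, against 12.7% and 9.76%. The 6 genes above at 3 months were Idi1, Fdps, Fdft1, Tm7sf2, Msmo1 and Insig1. Those above at 5 months were Lbr, Sc5d, Srebf1, Srebf2 and Scap, and the gene below was Nsdhl at both ages.

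Comparing ages within a genotype, members were called in the knockout and none in the wild type. From 3 to 8 months, 9 genes fell in the knockout and 1, Srebf1, rose, against 2.12% and 3.67% of all genes. The 9 were Hmgcs1, Idi1, Fdps, Fdft1, Sqle, Cyp51, Msmo1, Sc5d and Dhcr7, from -1.001 ± 0.18 for Idi1 (adjusted p = 0.00285) to -0.37 ± 0.08 for Sc5d (adjusted p = 0.00821). In the wild type limma called 0 of 25 in either direction over the same months, against 0.008% of all genes higher and 0.016% lower. At an unadjusted p below 0.05, 3 were higher and 0 lower there, against 4.12% and 3.49% of all genes, and the median over the 25 genes was 0.10. The 3 were Sqle (0.34 ± 0.12), Scap (0.20 ± 0.08) and Fdft1 (0.19 ± 0.07). Without knockout replicate 3 at 8 months the fall in the knockout took in 14 genes. Without replicate 2 at 8 months it took in 2, and without replicate 1 at 3 months 5. All 10 calls were lost with 8-month knockout replicates 1 and 2 left out, and also when only these groups were fitted without a sex term.

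The difference between the knockout effects at 8 and 3 months was tested itself. It was called for 4 genes, all with a lower effect at 8 months, against 0.208% of all genes, and for 0 with a higher one, against 0.968%. At an unadjusted p below 0.05, 15 members were lower and 1 higher, against 7.31% and 7.26% of all genes. The 4 were Fdps (-0.999 ± 0.20, adjusted p = 0.02), Sqle (-0.78 ± 0.17, adjusted p = 0.0277), Fdft1 (-0.58 ± 0.11, adjusted p = 0.0135) and Hmgcs1 (-0.53 ± 0.11, adjusted p = 0.0218). In that order, these 4 changed from 3 to 8 months by -0.72, -0.44, -0.38 and -0.49 in the knockout, all called. In the wild type they changed by 0.28, 0.34, 0.19 and 0.04, none called, and both parts enter the difference. Idi1 and Msmo1 had differences of -0.94 ± 0.25 and -0.92 ± 0.23 that were not called (adjusted p = 0.0777 and 0.0552). A dimmer Stard4 probe set had the largest difference of any tested probe set of the members, -1.29 ± 0.21 (adjusted p = 0.00519), while its brightest was not called. The count was between 1 and 2 without any of 8 single arrays (all 3 of the 3-month knockout, all 3 of the 8-month wild type, 8-month knockout replicate 2 and 3-month wild-type replicate 2). It was 9 without 8-month knockout replicate 3.

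In the mean over the ages, 4 genes were lower and 1 higher, against 6.43% and 8.39% of all genes. The lower genes were Fdps (-0.30 ± 0.08, adjusted p = 0.0197), Stard4 (-0.24 ± 0.08, adjusted p = 0.041), Nsdhl (-0.22 ± 0.05, adjusted p = 0.00496) and Fdft1 (-0.17 ± 0.04, adjusted p = 0.00956). Srebf1 was higher by 0.47 ± 0.10 (adjusted p = 0.00236). The median over the 25 genes was -0.07, beside -0.01 over all genes. The count of lower genes was 2 without 8-month knockout replicate 2 and 7 without replicate 3. The call of Stard4 was lost in 11 of the 18 fits that left out a single array, with no filter, and with the mean of a gene's probe sets. That of Fdps was lost in 1 of the 18, without 8-month knockout replicate 2, and those of Nsdhl, Fdft1 and Srebf1 in 0. With 8-month knockout replicates 1 and 2 left out, the calls of Fdps, Fdft1 and Stard4 were lost.

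Other genes of sterol metabolism were counted from lists, in the mean over ages. Of all genes, 8.39% were called higher and 6.43% lower in that mean. A single call in a list of this size is near these shares. Of 13 further genes of sterol synthesis and uptake, 3 were higher and 2 lower. The higher ones were the lysosomal sterol handlers Npc2 (0.57, adjusted p = 5.11e-07) and Lipa (0.40, adjusted p = 0.00689), and the lipoprotein receptor Lrp1 (0.20, adjusted p = 0.00592). Stard3, a late endosomal sterol carrier, and Lrp8, a reelin and apolipoprotein E receptor, were lower (-0.26, adjusted p = 0.0239, and -0.24, adjusted p = 0.0377). Of 12 genes of SREBP processing and reductase turnover, 0 were higher and 3 lower: Fbxw7, the ubiquitin ligase subunit that directs nuclear SREBP to degradation (-0.32, adjusted p = 2.26e-05), Rnf145 (-0.21, adjusted p = 0.00345) and Mbtps2, the site-2 protease (-0.17, adjusted p = 0.0403). The call of Lrp8 was lost without 8-month knockout replicate 1 (-0.23, adjusted p = 0.0553), and that of Mbtps2 without replicate 2 (-0.18, adjusted p = 0.0677).

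Of 16 fatty acid targets of SREBP, 4 were higher and 1 lower in the mean over ages, and 1 higher and 2 lower at 8 months, where the median was -0.02. Of all genes, 6.97% were called higher and 5.95% lower at 8 months. Without 8-month knockout replicate 3 the 8-month count of these targets was 2 higher and 4 lower. Without replicate 2 it was 1 and 1, and with replicates 1 and 2 left out 1 and 0. Gpam, which starts glycerolipid synthesis, was higher by 0.61 (adjusted p = 1.41e-07), Thrsp by 0.30 (adjusted p = 0.000863) and the elongase Elovl5 by 0.22 (adjusted p = 0.00248). Acss2, which makes acetyl-CoA from acetate, was lower (-0.27, adjusted p = 0.0109). Of 11 genes of sterol hydroxylation, esterification and LXR, 3 were higher and 1 lower. Abca1, the cholesterol exporter, was higher by 0.95 (adjusted p = 1.13e-07), Apoe, the main apolipoprotein of the brain, by 0.44 (adjusted p = 3.27e-07) and Cyp7b1, an oxysterol hydroxylase, by 0.39 (adjusted p = 0.000186). Cyp46a1, the neuronal cholesterol hydroxylase, was lower (-0.14, adjusted p = 0.0228), a call lost without 8-month knockout replicate 2 (-0.13, adjusted p = 0.0548). Of 12 genes of the non-sterol isoprenoid branch, Zmpste24 was higher (0.24, adjusted p = 0.0117) and Icmt lower (-0.25, adjusted p = 0.0121), both enzymes that process prenylated proteins.

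**Figure D5:**
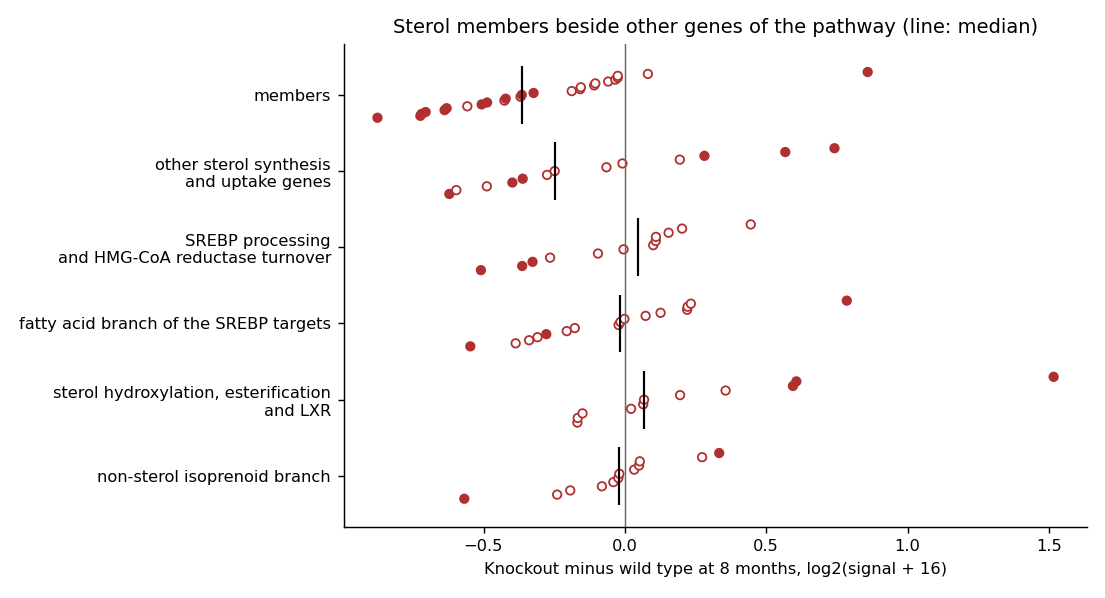
Knockout minus wild type at 8 months in log2(signal + 16) for each gene of the members and of the 5 other lists, with filled points called at an adjusted p of at most 0.05 and a black line at each median. The median of the members is -0.36, and those of the other lists run from -0.25 to 0.07.

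With a single 8-month knockout array left out, the median of the members was between -0.39 and -0.30 and the medians of the other lists between -0.31 and 0.16. With replicates 1 and 2 left out the members were at -0.16, the further genes of sterol synthesis and uptake at -0.19, and the remaining lists between -0.03 and 0.21.

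Cell type markers differed between the genotypes at 8 months, and several did so at the younger ages, when no member was called. Of all genes, 6.97% were called higher and 5.95% lower at 8 months. Of 12 astrocyte markers 9 were higher and 0 lower at that age, and their summed signal was 28157 to 29903 in the wild type and 43339, 43196 and 37711 on knockout replicates 1, 2 and 3. Of 12 microglial markers 8 were higher and 1 lower, at 4476.9 to 4830.0 against 11486, 13301 and 7514. Of 11 markers of excitatory neurons 0 were higher and 5 lower, at 21202 to 21642 against 17390.0, 16244 and 19750.0. In each of these lists replicate 3 lay nearest to the wild type, as it did for the enzymes. Of 10 oligodendrocyte markers 2 were higher and 1 lower, and the summed signal of 24288 to 25552 in the wild type stood beside 26559, 28676 and 27100 in the knockout. Ugt8a, which makes the myelin lipid galactocerebroside, was the lower one (-0.70, adjusted p = 0.0234). That call was lost without knockout replicate 1 (-0.38, adjusted p = 0.0942) or replicate 2 (-0.70, adjusted p = 0.0979).

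With single 8-month knockout arrays left out, 8 to 10 astrocyte markers, 7 to 9 microglial markers and 1 to 2 oligodendrocyte markers were higher, and 2 to 5 neuronal markers lower. With replicates 1 and 2 left out, 3 astrocyte and 6 microglial markers were higher and 1 neuronal marker lower. At 3 months 7 microglial and 2 astrocyte markers were higher, and at 5 months 8 and 5. Of all genes, 0.912% were called higher at 3 months and 2.31% at 5 months. The summed astrocyte signal at 5 months was 27547 to 28645 in the wild type and 35338 to 36245 in the knockout. The neuronal markers had a median change of -0.27 at 3 months and -0.28 at 5 months, against -0.26 at 8 months. In whole tissue, fewer cells of a type and less RNA in each cell cannot be told apart. The ratio of the 5′ to the 3′ actin probe sets was 0.432 to 0.482 in the 8-month knockout and 0.501 to 0.525 in the wild type. At 5 months it was 0.389 to 0.473 in the knockout and 0.412 to 0.499 in the wild type. At 3 months it was 0.507 to 0.542 in the knockout and 0.480 to 0.547 in the wild type. The same ratio for Gapdh was 1.22 to 1.25 in the 8-month knockout and 1.26 to 1.35 in the wild type. For Gapdh the genotypes overlapped at 5 months (1.16 to 1.28 against 1.23 to 1.39) and at 3 months (1.34 to 1.39 against 1.31 to 1.38). The part of these markers and of RNA quality in the change of the sterol genes was not tested.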

How the data were processed

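RNA of 18 samples was hybridised to 1 Affymetrix mouse array each. Each deposited value is the linear intensity of a probe set. The software and scaling by which the authors made it: not given in the sources used here. The trimmed mean was 150 on every array, so the values were used as deposited. Array medians spanned 0.09 on the log2 scale, and no arrays were identical. Groups of 3 arrays limit the precision.

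The analysis used log2(signal + 16), so fold changes are on that scale and understate the change of dim genes. After 64 control probe sets and the lowest 40% by mean were left out, 27022 probe sets were fitted with limma 3.58.1 in R 4.3.3 (the 6 groups plus sex, eBayes with a trend). All 18 arrays shared 1 estimate of the spread per probe set, also where a group varied more than the others. P-values are two-sided and adjusted by Benjamini-Hochberg over all tested probe sets, with a threshold of 0.05. Errors of changes are standard errors, and errors of signals are SDs. Genes were named from probe sets with 1 symbol in the platform annotation, and replicates were numbered in record order.

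The members and lists were chosen with earlier results of these data known. Named are all members, with every array for those called in a comparison that involves the knockout, and up to 3 genes each way with the smallest p in the other lists. The sequence rule, a called mean over ages with an exact sterol element, gave no gene, so other sequences were shown. Fdps, Fdft1 and Stard4, which were called in that mean, were not in the promoter table and could not be searched. Alternatives were quantile normalization, pseudocounts of 1 and 64, no filter and a filter of 60%, no sex term, robust eBayes, only the groups compared, the mean of a gene's probe sets, each array left out, and, chosen after seeing the data, 8-month knockout replicates 1 and 2 left out, and these arrays left out for the other lists. The fit was also tested on simulated data (27022 probe sets), where at 8 months it recovered 44% of changes of 0.5 and 72% of changes of 1 on the log2 scale, and 32% and 30% of changes of 0.5 at 3 and 5 months. Each share rests on 50 changed probe sets. The simulated noise was equal in all groups, unlike that of the real arrays, so the shares are not those of the real fits.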

Additional observations from a re-analysis of the deposited data

Results flagged for a closer look

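The knockout effect differed between ages for 4 members by the test of the difference itself, 8 months minus 3 months on the log2 scale. The difference was -0.999 ± 0.20 (SE) for Fdps (limma adjusted p = 0.02), -0.78 ± 0.17 for Sqle (adjusted p = 0.0277), -0.58 ± 0.11 for Fdft1 (adjusted p = 0.0135) and -0.53 ± 0.11 for Hmgcs1 (adjusted p = 0.0218). With 8-month knockout replicate 2 left out, 1 of the 4 was still called, Fdft1 (-0.55 ± 0.12, adjusted p = 0.0357). With replicate 3 left out, the differences were -1.25 for Fdps, -0.82 for Sqle, -0.60 for Fdft1 and -0.62 for Hmgcs1, all called. With replicates 1 and 2 left out none of the 4 was called, at -0.45, -0.69, -0.52 and -0.30 in the same order.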

How the results depend on the processing

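No paired analysis was possible because the labels give no replicate number that groups share. The counts below are of members, and the share of all genes called was not counted under these settings. At 8 months the lower count of 11 ranged from 6 to 14 with single arrays left out, and the higher count of 1 from 0 to 1. Over the same settings the mean over ages gave 2 to 7 lower (4 with all arrays) and 1 higher throughout. At 3 months the counts were 0 throughout, and at 5 months 0 to 1 higher and 0 lower. The difference of the effects at 8 and 3 months gave 1 to 9 lower (4 with all arrays) and 0 to 1 higher. From 3 to 8 months the knockout gave 2 to 14 lower (9 with all arrays) and 0 to 1 higher, and the wild type 0 in both directions. The gene that became called at 5 months was Srebf1.

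With 8-month knockout replicates 1 and 2 left out, the mean over ages gave 1 lower gene, 5 months 1 higher, 8 months 1 lower and 0 higher, the difference of effects 0 lower, and 3 to 8 months in the knockout 0 lower and 0 higher. With only the groups compared and no sex term, 5 months gave 1 higher, 8 months 5 lower, the difference of effects 2 lower, and 3 to 8 months in the knockout 0 lower and 0 higher. This fit has fewer samples and takes the spread from them alone, and beyond that the cause was not tested. Under quantile normalization, the pseudocounts, the filters, no sex term, robust eBayes and the mean of probe sets, the counts moved by at most 1.5 times.

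None of the 12 genes called at 8 months changed sign. Counted as pairs of a gene and a setting, 303 kept the call and 33 lost it. In the mean over ages 15 such pairs turned a sign, all for genes without a call. With 8-month knockout replicates 1 and 2 left out the values were 0.028 for Msmo1, 0.080 for Insig2, 0.062 for Idi1, 0.052 for Ggps1, 0.10 for Cyp51, 0.035 for Ebp, -0.014 for Lss and 0.036 for Mvd. The mean of probe sets gave -0.064 for Srebf2. With single arrays left out, Insig2 ranged from -0.080 to 0.0071, Mvd from -0.18 to 0.0013 and Scap from -0.038 to 0.0047. On simulated data with equal noise in all groups, the fit recovered 30% to 44% of changes of 0.5 at a single age. With 3 arrays in a group, a member without a call may thus have changed.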
